A study of Homo sapiens with 8 samples.

Results

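The 39 genes described here belong to the cellular response to low oxygen and to glycolysis. They were chosen by name, as glucose transporters, glycolytic enzymes and known targets of the hypoxia-inducible factors (HIFs). Earlier results of these data were known when the choice was made. All 39 were found among the 25369 gene symbols measured, and all 39 were among the 13369 genes tested, which reached 10 normalized counts or more in 2 or more libraries. Normalized counts are numbers of sequenced reads on a gene, scaled by 1 factor per library so that libraries can be compared. The lowest value of any of these genes in any library was 25, so none was near the limit of detection, where 3 reads amounted to 2.41 to 3.73 normalized counts.

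RNA was sequenced from MCF10A cells, a spontaneously immortalized but non-malignant human mammary epithelial line, after 7 days inside one of 4 hydrogels. Soft IPNs were interpenetrating networks of reconstituted basement membrane (rBM) and alginate, and stiff IPNs held the same polymers with the alginate crosslinked by calcium, so that stiffness changed while the proteins that cells can bind did not. Soft col:rBM gels joined rBM with a low density of collagen-1, and stiff col gels held dense collagen-1, so stiffness and collagen density changed together between the collagen gels. The stiff col label does not name rBM, while the methods state a single rBM concentration for all experiments. Whether rBM content changed as well is therefore not settled here. Each gel had 2 libraries, replicates 1 and 2, which came from 2 independent trials, 1 library per gel in each. All groups are the same cell line with no added gene, drug or oxygen treatment in the labels, and in bulk RNA fewer cells of a kind and less RNA per cell cannot be told apart.

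The libraries held 14306848 to 17999273 normalized counts, from an estimated 13065018 to 18588896 reads on genes. Stiff IPN replicate 2 stood apart, with a median correlation to the other libraries of 0.946 against 0.956 to 0.969 for the rest. It had the fewest estimated reads, 13065018. On the main axis of variation between libraries (47.4% of the variance) it was at 62.1, the others at -50.42 to 26.69. On the next axis (23.8%) it was at -43.84, the others at -23.93 to 36.42. Markers of mammary basal epithelium (8 of 8) and of epithelium (4 of 4) were present in every library. Red cell markers (3 of 3) were at 0 throughout. Of 3 leukocyte markers PTPRC and CD3E never passed 1, and the list's sum, 2092 to 4222 in soft IPNs, 324 to 1221 in stiff IPNs, 1348 to 5018 in soft col:rBM gels and 991 to 4360 in stiff col gels, was nearly all CD68, a lysosomal gene that other cells express too. CD68 was lowest in stiff IPNs in each trial, and its part in the results was not tested. The fibroblast list summed to 774 to 1463 over all libraries, from DCN and COL1A1, with COL1A2 at 0 in all 8, and the endothelial list to 39 to 270, mostly KDR.

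Cells short of oxygen shift from respiration to glycolysis, and the transcription factors HIF-1 and HIF-2 drive that shift. Their alpha subunits, encoded by HIF1A and EPAS1, are made continuously, hydroxylated by prolyl hydroxylases such as EGLN1 and EGLN3 when oxygen is present, and then degraded, so HIF activity is set largely after transcription and is read from the targets. The targets include glucose transporters, nearly every enzyme of glycolysis, lactate and proton exporters, angiogenic signals and, as feedback, the hydroxylases themselves. In mammary epithelium and breast tumors the carbonic anhydrase CA9 is a widely used marker of this response.

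HIFs bind DNA at a short core, ACGTG or GCGTG, so the promoters of 8 of the genes are shown before the values, for the reasons given beside them. RefSeq promoters of assembly GRCh38.p14, 300 bases each from 250 before to 50 after the transcription start, were at hand for 35 of the 39 genes (53 promoters). Those of BNIP3L, NDRG1, VEGFA and SLC2A3 were not at hand. At least 1 core on either strand was found for 32 of the 35 genes (91.4%), against 69.7% of 9791 tested genes with a promoter. By promoter the shares were 79.2% of the members' 53, 59.9% of the 14343 promoters of tested genes and 48.4% of all 35116. ACGTG alone was in 47.2% of the members' promoters and 25.1% of those of tested genes. The palindrome CACGTG, which contains ACGTG on both strands and is also the site of other factor families, was in 17% and 9.01%. PGAM1, EGLN3 and P4HA2 had no core in these windows. These are matches of letters, and binding was not measured.

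In the promoters below, capitals mark the letters of a core on either strand, positions count from the transcription start, and all are written 5′ to 3′ on the gene's own strand. CA9, EGLN3 and ENO2 had the widest ranges over libraries, and ADM and P4HA1 are members with a single core that passed a test with each trial given its own level. ALDOC, LDHA and PGK1 are examples with 4 cores each. BNIP3, with 5 cores, and HK2 and DDIT4, with up to 4 each, are not shown.
CA9 (chr9:35673678-35673977, plus strand, core at -18): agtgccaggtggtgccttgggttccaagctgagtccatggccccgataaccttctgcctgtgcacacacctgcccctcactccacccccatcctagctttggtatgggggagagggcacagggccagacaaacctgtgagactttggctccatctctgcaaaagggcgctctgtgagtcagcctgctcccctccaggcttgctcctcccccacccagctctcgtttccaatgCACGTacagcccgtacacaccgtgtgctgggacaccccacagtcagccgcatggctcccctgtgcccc
EGLN3 (chr14:33951025-33951324, minus strand, no core): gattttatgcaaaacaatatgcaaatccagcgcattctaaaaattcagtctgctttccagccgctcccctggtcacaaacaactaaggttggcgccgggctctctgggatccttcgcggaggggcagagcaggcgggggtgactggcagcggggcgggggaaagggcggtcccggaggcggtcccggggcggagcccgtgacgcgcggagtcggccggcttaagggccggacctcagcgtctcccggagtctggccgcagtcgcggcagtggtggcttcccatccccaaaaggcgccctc
ENO2 (chr12:6914330-6914629, plus strand, core at -118): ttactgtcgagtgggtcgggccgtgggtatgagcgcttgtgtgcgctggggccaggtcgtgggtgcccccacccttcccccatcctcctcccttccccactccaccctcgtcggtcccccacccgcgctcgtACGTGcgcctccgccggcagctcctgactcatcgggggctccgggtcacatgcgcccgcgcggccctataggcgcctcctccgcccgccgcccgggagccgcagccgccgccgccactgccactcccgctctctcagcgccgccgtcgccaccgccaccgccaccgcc
ADM (chr11:10304823-10305122, plus strand, core at -101): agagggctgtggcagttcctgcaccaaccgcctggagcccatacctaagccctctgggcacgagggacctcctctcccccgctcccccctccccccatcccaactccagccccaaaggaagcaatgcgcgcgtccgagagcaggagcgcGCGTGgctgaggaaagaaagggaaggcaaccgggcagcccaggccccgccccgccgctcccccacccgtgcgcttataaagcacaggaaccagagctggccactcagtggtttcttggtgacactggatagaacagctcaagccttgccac
P4HA1 (chr10:73096817-73097116, minus strand, core at -86): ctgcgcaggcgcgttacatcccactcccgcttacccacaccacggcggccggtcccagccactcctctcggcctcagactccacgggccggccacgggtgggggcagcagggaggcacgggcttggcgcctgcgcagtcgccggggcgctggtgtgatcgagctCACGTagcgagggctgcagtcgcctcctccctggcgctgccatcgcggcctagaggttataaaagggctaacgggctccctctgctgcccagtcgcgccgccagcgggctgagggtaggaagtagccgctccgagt
ALDOC (chr17:28576846-28577145, minus strand, cores at -240, -108, -45 and -28): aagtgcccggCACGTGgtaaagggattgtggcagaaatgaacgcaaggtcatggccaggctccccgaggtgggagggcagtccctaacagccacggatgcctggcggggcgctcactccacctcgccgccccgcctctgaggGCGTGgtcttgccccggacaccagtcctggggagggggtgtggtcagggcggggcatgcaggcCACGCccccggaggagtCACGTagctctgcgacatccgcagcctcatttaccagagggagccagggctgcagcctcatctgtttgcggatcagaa
LDHA (chr11:18394313-18394612, plus strand, cores at -185, -87, -73 and 39): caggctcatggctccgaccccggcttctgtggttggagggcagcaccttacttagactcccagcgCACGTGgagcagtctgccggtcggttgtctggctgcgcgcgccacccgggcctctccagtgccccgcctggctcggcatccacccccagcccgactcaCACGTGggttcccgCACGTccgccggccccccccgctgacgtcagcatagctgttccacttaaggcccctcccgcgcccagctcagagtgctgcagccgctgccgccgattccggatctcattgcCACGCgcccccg
PGK1 (chrX:78103998-78104297, plus strand, cores at -211, -202, -183 and 29): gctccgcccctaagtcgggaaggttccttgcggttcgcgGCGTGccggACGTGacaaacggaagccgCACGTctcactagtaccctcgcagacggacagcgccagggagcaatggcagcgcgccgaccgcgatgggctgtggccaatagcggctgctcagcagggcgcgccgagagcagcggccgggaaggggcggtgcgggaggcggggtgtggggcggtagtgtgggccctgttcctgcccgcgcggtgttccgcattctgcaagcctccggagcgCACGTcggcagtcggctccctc

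To ask how stiffness relates to these genes when the proteins that cells can bind do not change, stiff IPNs were first compared with soft IPNs. Calcium was added to crosslink the stiff IPNs, so calcium and stiffness changed together. Their separate parts were not tested. In stiff IPNs, 38 of the 39 genes had a lower mean, with a median log2 fold change of -1.02, while the median of all tested genes was -0.01 and 50.4% of them were lower. HIF1A, named here after its values were seen, was the exception at 0.06. All 13 glycolytic enzymes, both glucose transporters and all 4 genes of mitophagy and stress had lower means. For 27 of the 39 genes both stiff libraries lay below both soft libraries, against 21.4% of all genes, and 28 were lower in both replicates, against 31.7% of all genes. For none did both stiff libraries lie above both soft libraries (20.5% of all genes), and none was higher in both replicates (31.2%).

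That difference was larger in the second trial. The median log2 fold change of the 39 genes between stiff and soft IPNs was -0.25 in replicate 1 and -1.63 in replicate 2. In a limma model with 1 mean per gel and 8 libraries, 0 of 39 genes and 0 of 13369 (0% called) passed an adjusted p of 0.05. At an unadjusted p under 0.05 there were 17 of the 39, all lower, against 9.31% of all genes and 4.51% in that direction. With a replicate block, a model that gives each trial its own level, 7 of the 39 (17.9%) fell in stiff IPNs and none rose, against 3.82% of all genes, or 2.13% lower and 1.69% higher. These were ENO2 (chr12:7022909-7032861), ADM (chr11:10326620-10328944), ALDOC (chr17:26900133-26903966), P4HA1 (chr10:74766975-74856732), GAPDH (chr12:6643678-6647540), DDIT4 (chr10:74033678-74035794) and ALDOA (chr16:30075485-30081778), whose spans are given on hg19 from GENCODE and whose reads were summed over exons. A block model of the 4 IPN libraries alone, chosen after seeing the data, called 4 of the 39, all lower, against 2.33% of all genes. P4HA1 (0.00315), GAPDH (0.035), ALDOA (0.043) and DDIT4 (0.0458) had these adjusted p by limma in it, and the calls of ENO2 (0.0735), ADM (0.296) and ALDOC (0.34) were lost. The count of 7, with the block and all gels, fell without soft IPN replicate 2 and without either stiff col replicate. It rose without stiff IPN replicate 1 and without soft IPN replicate 1. The calls over all genes also moved when single libraries were left out. The median fold change was -0.60 without soft IPN replicate 2 and -0.63 without stiff IPN replicate 2.

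**Figure D1:**
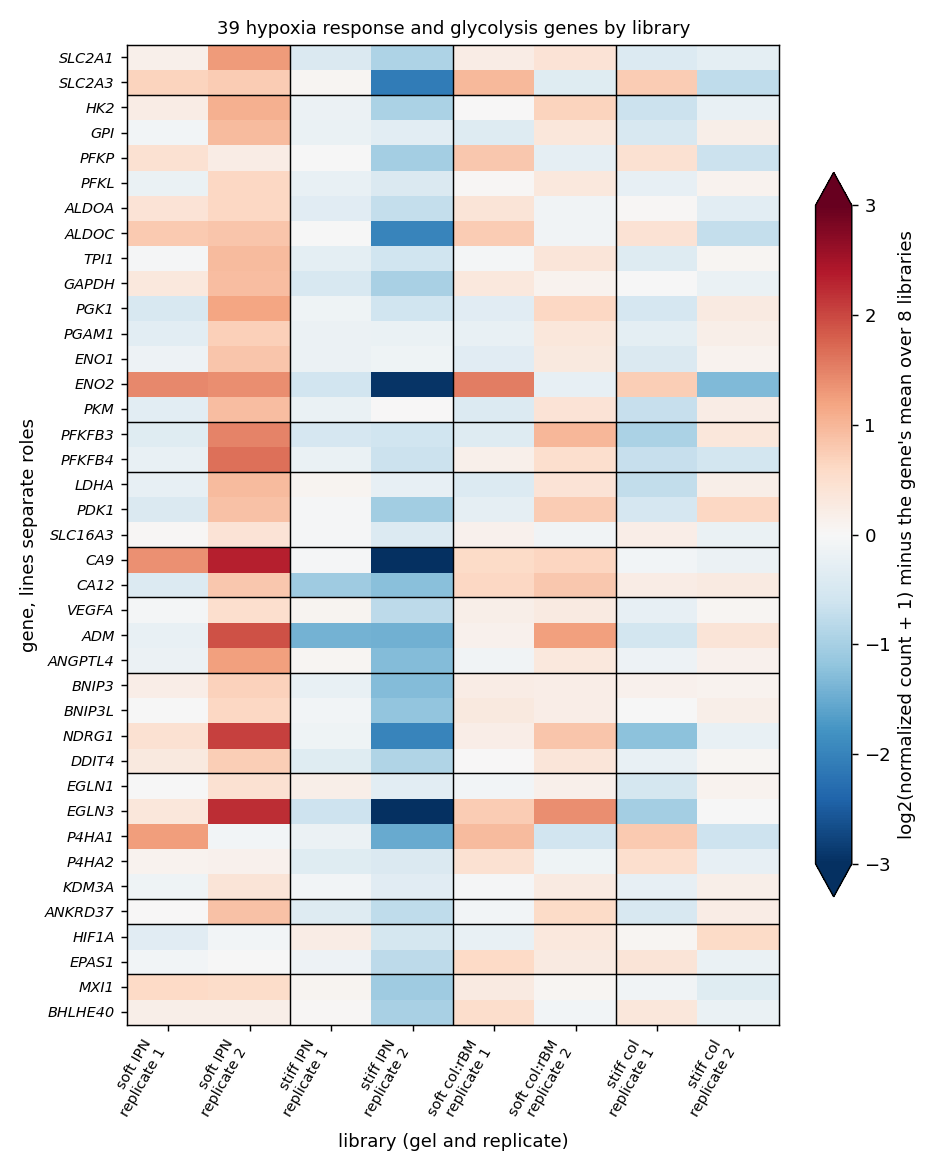
Log2 normalized count of each of the 39 genes, as the difference from the gene's own mean over 8 libraries, with 1 line of boxes per gene, grouped by role, and 1 column per library. Red is above and blue below the gene's mean, and the colours end at 3 log2 units either way. Soft IPN replicate 2 was the highest library for 29 genes and stiff IPN replicate 2 the lowest for 31.

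Between the collagen gels the differences were smaller but nearly as one-sided. In stiff col gels 38 of the 39 genes had a lower mean than in soft col:rBM gels, with a median log2 fold change of -0.29 against 0.00 for all tested genes, of which 50.5% were lower, and HIF1A was again the exception at 0.27. The trials were alike here, with medians of -0.33 in replicate 1 and -0.30 in replicate 2. In both replicates 36 of the 39 genes were lower, against 32.7% of all genes, and 1, HIF1A, was higher, against 30.8%. Both stiff libraries lay below both soft libraries for 12 genes, against 9.5% of all genes, and above them for none, against 9.51%. No gene among the 39 or the 13369 passed limma's adjusted p of 0.05, with or without the block (0% called), and at an unadjusted p under 0.05 there were 0 of the 39 without the block, against 1.05% of all genes, and 0 with it, against 3.72%. A block model of these 4 libraries alone, chosen after seeing the data and left with 1 residual degree of freedom per gene before the spread is shared between genes, called 24 of the 39 against 7.07% of all genes. Of these, 23 were lower, against 4.02% of all genes, and HIF1A was higher, against 3.05%. The collagen result thus passes or misses the threshold with the libraries that set the spread.

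The 2 stiff gels were then set against each other. In stiff col gels 34 of the 39 genes had a higher mean than in stiff IPNs, with a median log2 fold change of 0.42 against 0.00 for all tested genes, of which 49.4% were lower. The medians were -0.08 in replicate 1 and 0.77 in replicate 2, and 17 genes were higher in both replicates, against 28.2% of all genes, and none lower in both, against 27.3%. Both stiff col libraries lay above both stiff IPN libraries for 9 genes, against 15.1% of all genes, and below them for none, against 15.8%. By limma 0 of the 39 passed (0% of all genes called), and 2 had an unadjusted p under 0.05, against 6.27%. With the block 1 of the 39, P4HA1, rose, against 2.47% of all genes, 1% higher and 1.47% lower. In a block model of the 4 libraries of these gels alone, also chosen after seeing the data, P4HA1 lost its call and CA12 and ADM were called as higher, against 1.95% of all genes. The count with the block over 8 libraries rose without stiff IPN replicate 1 and fell without either stiff col replicate. The calls over all genes also moved when single libraries were left out. Without stiff IPN replicate 2 the median fold change was 0.08, and without stiff IPN replicate 1 it was 0.82.

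Last, the soft gels were compared. The median log2 fold change of soft col:rBM against soft IPN was -0.26, with 32 genes lower (50.3% of all genes) and 7 higher, and the replicates did not share a direction (0.08 in replicate 1, -0.51 in replicate 2). Both replicates were lower for 17 genes (27.6% of all genes) and higher for 3 (26.3%). Libraries did not overlap for 5 genes with lower values (10.4% of all genes) and for 1 with higher values, EPAS1 (10.3%). None of the 39 passed by limma, with the block (0.0224% of all genes called) or without it (0% called). At an unadjusted p under 0.05 without the block there were 0 of the 39, against 1.42% of all genes. Leaving out soft IPN replicate 2 turned the median to 0.18, leaving out soft IPN replicate 1 gave -0.63, and leaving out soft col:rBM replicate 1 gave -0.10.

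Whether stiff and soft gels differed equally in the 2 gel systems was tested as the fold change between collagen gels minus that between IPNs. This is called the difference of stiffness effects below, although calcium in IPNs and collagen density in collagen gels changed with stiffness, as rBM content may have. It was above 0 for all 39 genes, with a median of 0.57, while 48.8% of all genes were below 0. When libraries were scaled to equal totals it was below 0 for 7 of the 39, and with upper-quartile scaling for 1. The median difference was -0.077 in replicate 1 and 1.255 in replicate 2, so the replicates did not share a direction. Only 17 genes were above 0 in both replicates, against 29.8% of all genes. None of the 39 passed by limma without the block (0% of all genes called), and 0 of the 39 had an unadjusted p under 0.05, against 2.08% of all genes. With the block none passed either (0.015% called). The median difference was 0.25 without soft IPN replicate 2, 0.29 without stiff IPN replicate 2, 1.07 without soft IPN replicate 1 and 0.95 without stiff IPN replicate 1. These 5 comparisons share libraries, so their values are not independent of each other.

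**Figure D2:**
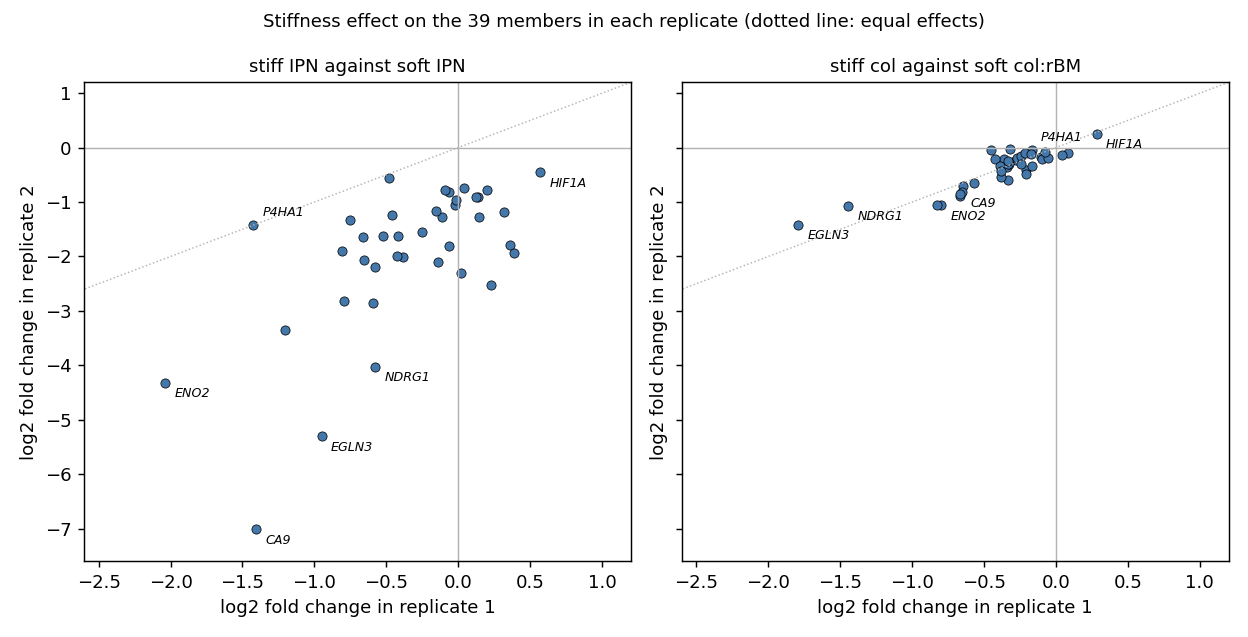
Log2 fold change of each of the 39 genes between stiff and soft gels in replicate 1 (horizontal) and in replicate 2 (vertical), for IPNs and for collagen gels. The medians were -0.25 and -1.63 in IPNs and -0.33 and -0.30 in collagen gels.

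The order of the gels within a trial shows the same contrast. In replicate 2, all 39 genes were lowest in stiff IPNs and 36 were highest in soft IPNs. In replicate 1 the lowest gel was stiff col for 19 genes, stiff IPN for 17 and soft IPN for 3, and the highest was soft col:rBM for 15, soft IPN for 14, stiff IPN for 8 and stiff col for 2. The median range from lowest to highest gel was 0.67 in replicate 1 and 1.63 in replicate 2 on the log2 scale. It was wider in replicate 2 for 38 of the 39 genes, P4HA2 being the exception, against 58% of all tested genes, whose median ranges were 0.52 and 0.59.

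Glucose enters through facilitated transporters. SLC2A3 encodes GLUT3, a high-affinity transporter, and its normalized counts (replicates 1 and 2) were 1156 and 1235 in soft IPNs, 765 and 169 in stiff IPNs, 1432 and 571 in soft col:rBM gels and 1239 and 430 in stiff col gels. Replicate 2 was lower in every gel but soft IPN, and the library of stiff IPN replicate 2 was the lowest. Between IPNs the log2 fold change was -1.73 (SE 0.79, adjusted p = 0.54 by limma, 0.0648 with the block). SLC2A1, which encodes GLUT1, ranged from 1614 to 7379, lowest in stiff IPN replicate 2 and highest in soft IPN replicate 2.

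The upper steps of glycolysis trap and split the sugar. GPI interconverts glucose 6-phosphate and fructose 6-phosphate, and had 5859 and 11939 in soft IPNs, 5417 and 4958 in stiff IPNs, 4766 and 7883 in soft col:rBM gels and 4426 and 7024 in stiff col gels. PFKP is a phosphofructokinase, the step that commits sugar to glycolysis, with 11042 and 9355 in soft IPNs, 8011 and 3987 in stiff IPNs, 14039 and 6659 in soft col:rBM gels and 11067 and 5193 in stiff col gels. GPI was higher in replicate 2 in all gels but stiff IPN, whereas PFKP was lower in replicate 2 in all 4. HK2, the hexokinase that HIF induces, ranged from 664 to 2678, and PFKL, the liver phosphofructokinase, from 1323 to 2731. Both were lowest in stiff IPN replicate 2 and highest in soft IPN replicate 2. Between stiff and soft IPNs the log2 fold changes of GPI and PFKP were -0.69 and -0.85, and neither passed the test (adjusted p = 0.598 and 0.605 by limma).

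Aldolases cleave the doubly phosphorylated sugar into 3-carbon units. ALDOA, the main form, had 42630 and 49328 in soft IPNs, 25265 and 19506 in stiff IPNs, 41953 and 29472 in soft col:rBM gels and 32624 and 25604 in stiff col gels. Both stiff IPN libraries lay below all other libraries. The log2 fold change between IPNs was -1.05 (block SE 0.20), with an adjusted p of 0.491 by limma and 0.0369 with the block. ALDOC, a second aldolase that is induced by HIF, had 1609 and 1654 in soft IPNs, 928 and 235 in stiff IPNs, 1571 and 858 in soft col:rBM gels and 1247 and 567 in stiff col gels. It fell by more than ALDOA between IPNs, -1.80 (block SE 0.38, adjusted p = 0.501 by limma, 0.0449 with the block and 0.34 with it in IPNs alone), though the difference between the genes was not tested. Its stiff IPN replicate 2 library, 235, was the lowest of the 8.

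GAPDH oxidizes the 3-carbon sugar and is often taken as a constant reference gene. Here it had 182477 and 278772 in soft IPNs, 104054 and 74553 in stiff IPNs, 180302 and 156548 in soft col:rBM gels and 143348 and 126448 in stiff col gels, which was 0.521 to 1.55% of all counts in a library. The highest library, soft IPN replicate 2, was the second of its gel, and both stiff IPN libraries lay below all others. Between IPNs the log2 fold change was -1.36 (block SE 0.25), with an adjusted p of 0.491 by limma and 0.0361 with the block. Between collagen gels it was -0.32 (SE 0.32, adjusted p = 1 by limma). Processed copies of this gene lie across the genome and reads that map to several places had been removed, so its level is uncertain, as are those of ALDOA, PGK1, LDHA, ENO1, TPI1 and PGAM1.

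The lower steps of glycolysis yield ATP and pyruvate. TPI1, which balances the 3-carbon sugars, ranged 2.911-fold over the libraries (11617 to 33818), PGK1, which makes the first ATP, 3.446-fold (9758 to 33626), and PGAM1, a mutase, 2.023-fold (6295 to 12734). Soft IPN replicate 2 was the highest library for each, and the lowest was stiff IPN replicate 2 for TPI1 and PGK1 but soft IPN replicate 1 for PGAM1. Enolases make phosphoenolpyruvate. ENO1, the ubiquitous form, had 33022 and 65825 in soft IPNs, 32617 and 33803 in stiff IPNs, 29358 and 45318 in soft col:rBM gels and 27493 and 39449 in stiff col gels, which put the replicate 1 libraries between 27493 and 33022. ENO2, a form best known from neurons and induced by HIF, had 545 and 520 in soft IPNs, 132 and 25 in stiff IPNs, 574 and 166 in soft col:rBM gels and 330 and 79 in stiff col gels. Both stiff IPN libraries lay below both soft IPN libraries, and within every gel replicate 2 was below replicate 1. The log2 fold change between IPNs was -3.18 (block SE 0.48), -2.04 in replicate 1 and -4.33 in replicate 2, with an adjusted p of 0.493 by limma, 0.0254 with the block and 0.0735 with it in IPNs alone. PKM, pyruvate kinase, closes the pathway and had 27152 and 64491 in soft IPNs, 29610 and 34303 in stiff IPNs, 25438 and 44884 in soft col:rBM gels and 21041 and 39482 in stiff col gels. In replicate 2 it was higher in every gel, and its fold change between IPNs, -0.39 (adjusted p = 0.811 by limma), had opposite signs in the replicates (0.12 in replicate 1 and -0.91 in replicate 2).

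**Figure D3:**
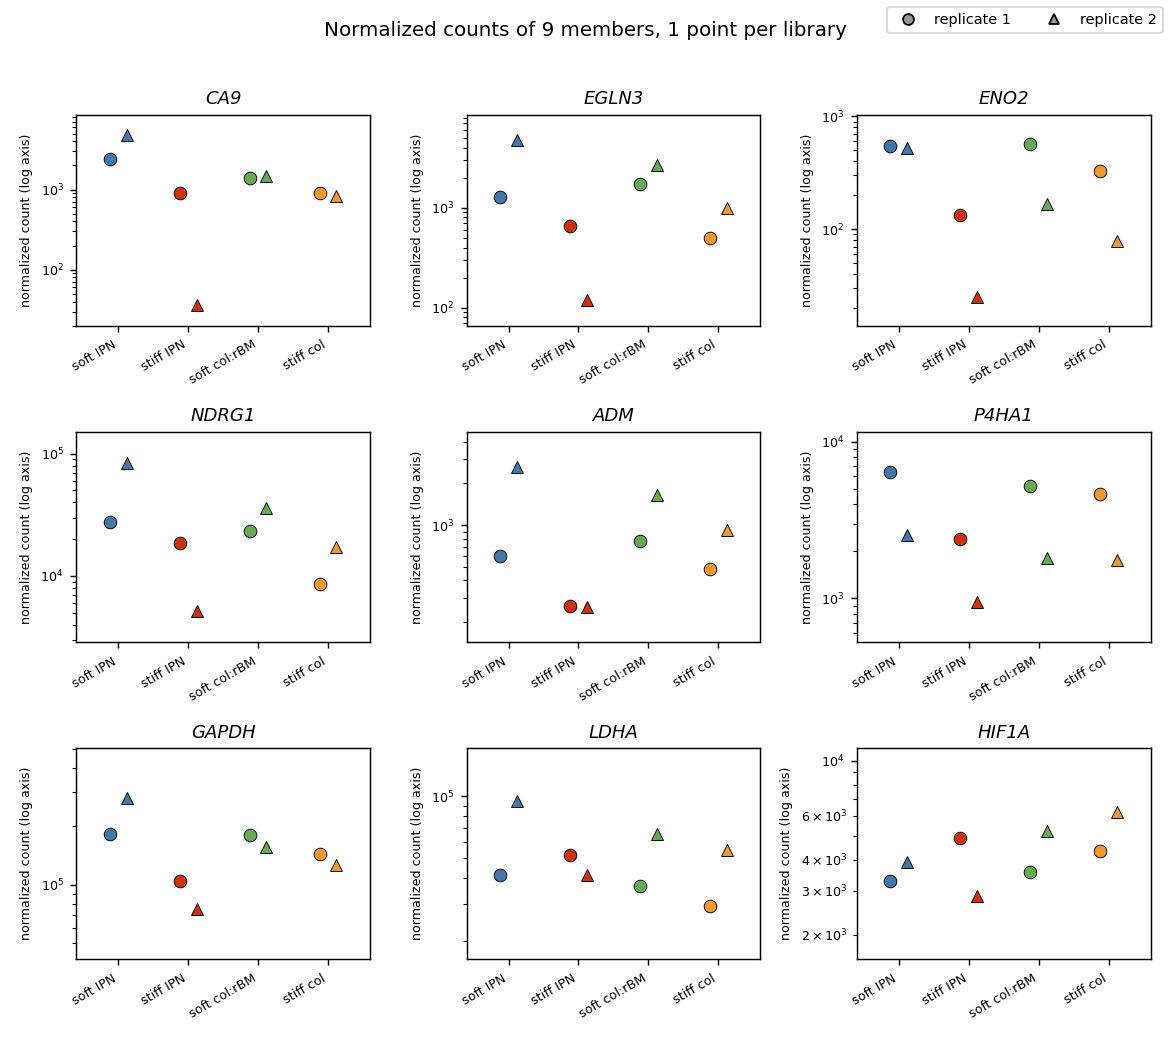
Normalized counts (log axis) of 9 of the genes in the 4 gels, with 1 point per library, replicates 1 and 2 marked apart. For ENO2, both stiff IPN libraries (132 and 25) lie below the soft IPN libraries (545 and 520).

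PFKFB3 and PFKFB4 set the level of fructose 2,6-bisphosphate, which switches phosphofructokinase on. PFKFB3 had 782 and 2854 in soft IPNs, 708 and 664 in stiff IPNs, 771 and 2011 in soft col:rBM gels and 519 and 1287 in stiff col gels, higher in replicate 2 in every gel but stiff IPN. PFKFB4 had 395 and 1446 in soft IPNs, 401 and 292 in stiff IPNs, 507 and 653 in soft col:rBM gels and 285 and 315 in stiff col gels, and both stiff col libraries lay below both soft col:rBM libraries. For PFKFB4 the log2 fold change between collagen gels was -0.94 (SE 0.54, adjusted p = 1 by limma, 1 with the block over 8 libraries), and in the collagen libraries alone the adjusted p was 6.68e-05. The 3 genes that handle pyruvate and lactate were less even: LDHA, which makes lactate, was higher in stiff than in soft IPNs in replicate 1 (51823 against 41512) and lower in replicate 2 (41617 against 94450). PDK1, a kinase that keeps pyruvate out of mitochondria, ranged from 287 to 1097, with the same change of sign. SLC16A3, the lactate exporter MCT4, ranged from 7354 to 12944, only 1.76-fold.

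Carbonic anhydrases at the cell surface buffer the acid that glycolysis exports. CA9 had 2431 and 4770 in soft IPNs, 918 and 36 in stiff IPNs, 1408 and 1480 in soft col:rBM gels and 894 and 837 in stiff col gels. Its 132.5-fold range over the libraries was the widest of the 39 genes, and 36 in stiff IPN replicate 2 was far below every other library. The log2 fold change between IPNs was -4.21 (SE 1.24), -1.40 in replicate 1 and -7.01 in replicate 2, and did not pass the test (adjusted p = 0.493 by limma, 0.131 with the block). CA9 was also lower in soft col:rBM gels than in soft IPNs, at -1.24 (adjusted p = 1 by limma, 1 with the block, 0.0186 with the block in those 4 libraries alone, where it was the only one of the 39 called, against 0.337% of all genes). CA12, a related enzyme, had 9077 and 21260 in soft IPNs, 5776 and 5058 in stiff IPNs, 18538 and 21325 in soft col:rBM gels and 14258 and 14699 in stiff col gels. Both libraries of stiff col lay above both of stiff IPN, and the log2 fold change was 1.42 (SE 0.38, adjusted p = 0.485 by limma, 0.0545 with the block over 8 libraries, 0.00506 with the block in the stiff gels alone).

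Among secreted factors, ADM encodes adrenomedullin, a peptide that widens vessels, and had 604 and 2630 in soft IPNs, 262 and 257 in stiff IPNs, 766 and 1657 in soft col:rBM gels and 481 and 923 in stiff col gels. Its stiff IPN libraries were nearly equal and were the lowest of the 8. Between IPNs it fell with the block over 8 libraries, at -2.28 (block SE 0.40, adjusted p = 0.493 by limma and 0.0328 with the block), but not in IPNs alone (0.296). The log2 fold change of stiff col against stiff IPN was 1.36, which passed with the block in those gels alone and not over 8 libraries (adjusted p = 0.799 by limma, 0.125 with the block, 0.0411 in the stiff gels alone). VEGFA, the principal angiogenic factor, ranged from 2401 to 5807 and ANGPTL4, a lipase inhibitor, from 3353 to 19407. Both were higher in stiff than in soft IPNs in replicate 1 and lower in replicate 2.

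Genes of mitophagy and stress were lower in stiff IPNs in both replicates, 4 of 4. DDIT4, an inhibitor of mTORC1 signaling also known as REDD1, had 22498 and 30781 in soft IPNs, 14248 and 9866 in stiff IPNs, 18616 and 23478 in soft col:rBM gels and 15764 and 19105 in stiff col gels. No stiff IPN library reached any other library, and the log2 fold change between IPNs was -1.15 (block SE 0.24, adjusted p = 0.491 by limma and 0.0422 with the block). BNIP3, which marks mitochondria for removal, had 1806 and 2570 in soft IPNs, 1348 and 642 in stiff IPNs, 1835 and 1807 in soft col:rBM gels and 1741 and 1712 in stiff col gels. Stiff col was above stiff IPN by 0.89 (SE 0.34), which missed the threshold (adjusted p = 0.728 by limma, 0.181 with the block). NDRG1, a stress-induced gene named for its regulation by the transcription factor MYCN, had 27790 and 84148 in soft IPNs, 18632 and 5153 in stiff IPNs, 23366 and 36173 in soft col:rBM gels and 8596 and 17279 in stiff col gels. Both stiff col libraries lay below both soft col:rBM libraries, with a log2 fold change of -1.25 (SE 0.73, adjusted p = 1 by limma, 1 with the block, 2.28e-06 in the collagen libraries alone). BNIP3L, a relative of BNIP3, ranged from 746 to 2605, between stiff and soft IPN replicate 2.

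Enzymes that use oxygen as a substrate include the HIF prolyl hydroxylases. EGLN3, whose promoter above holds no core, had 1280 and 4742 in soft IPNs, 663 and 119 in stiff IPNs, 1719 and 2676 in soft col:rBM gels and 496 and 1004 in stiff col gels. It was lower in the stiff gel of each pair in both replicates. The log2 fold change was -3.13 between IPNs (SE 0.88, adjusted p = 0.491 by limma and 0.122 with the block) and -1.60 between collagen gels (SE 0.88, adjusted p = 1 and 1). In the collagen libraries alone its adjusted p was 2.49e-07, the lowest of the 39. EGLN1, the main HIF hydroxylase, ranged from 1230 to 2426 and KDM3A, a histone demethylase, from 684 to 1144, the narrowest range of the 39 at 1.673-fold. ANKRD37, an ankyrin repeat gene induced by HIF, ranged from 92 to 287 and was lower in stiff IPNs in both replicates.

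P4HA1, the catalytic subunit of collagen prolyl 4-hydroxylase, is needed to fold collagen and had 6447 and 2540 in soft IPNs, 2404 and 944 in stiff IPNs, 5228 and 1809 in soft col:rBM gels and 4660 and 1759 in stiff col gels. Replicate 2 was below replicate 1 in every gel, and within each replicate stiff IPN was the lowest gel. It was the one gene of the 39 that passed with the block over 8 libraries in both comparisons of stiff IPN. The log2 fold change was -1.43 against soft IPN (block SE 0.13, adjusted p = 0.571 by limma, 0.00669 with the block, 0.00315 with it in IPNs alone). For stiff col against stiff IPN it was 0.93 (block SE 0.13, adjusted p = 0.878 by limma, 0.0183 with the block), and the call was lost with the block in the stiff gels alone (0.0631). In the test of any difference among the 4 gels, 0 of the 39 passed by limma without the block (0% of all genes called), 10 had an unadjusted p under 0.05, against 5.25% of all genes, and 1, P4HA1, passed with it (adjusted p = 0.0117), against 1.58% of all genes. That count with the block rose without either stiff IPN replicate and without soft IPN replicate 1, and fell without soft IPN replicate 2. The calls over all genes also moved when single libraries were left out.

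The HIF alpha subunits are the sensors' substrates. HIF1A, shown because it alone had a higher mean in the stiff gel of both systems, had 3291 and 3927 in soft IPNs, 4891 and 2873 in stiff IPNs, 3559 and 5208 in soft col:rBM gels and 4337 and 6221 in stiff col gels, and its stiff libraries were above the soft ones of the same trial except in replicate 2 of the IPNs. EPAS1, which encodes HIF-2 alpha, had 6077 and 6334 in soft IPNs, 5715 and 3715 in stiff IPNs, 9617 and 7773 in soft col:rBM gels and 8329 and 5547 in stiff col gels. Both soft col:rBM libraries lay above both soft IPN libraries, with a log2 fold change of 0.48 (SE 0.29, adjusted p = 1 by limma, 0.991 with the block). BHLHE40 and MXI1 encode repressors that HIF induces, and BHLHE40 had 4761 and 4773 in soft IPNs, 4285 and 2142 in stiff IPNs, 6006 and 3974 in soft col:rBM gels and 5326 and 3655 in stiff col gels. Its fold change between IPNs was -0.65 (adjusted p = 0.589 by limma) with stiff IPN replicate 2 as the lowest library. MXI1 ranged from 376 to 1205, lowest in the same library.

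The trials also differed within a gel. With gel terms in the model and all 8 libraries, 11 of the 39 genes (28.2%) passed limma's adjusted p of 0.05 between replicate 2 and replicate 1. This was near the 27.1% of all genes, so in that fit these genes did not stand out in number. PFKFB3 (1.12, adjusted p = 0.0213 by limma), ADM (1.04, 0.0313), PKM (0.80, 0.0126), GPI (0.57, 0.0457) and ENO1 (0.55, 0.0343) rose, 5 against 12.7% of all genes. BHLHE40 (-0.53, 0.038), PFKP (-0.85, 0.00868), ALDOC (-0.99, 0.0307), SLC2A3 (-1.23, 0.0227), P4HA1 (-1.41, 0.000687) and ENO2 (-1.56, 0.0144) fell, 6 against 14.4%. With libraries scaled to equal totals the calls over all genes moved from 1693 higher and 1926 lower to 2400 and 1244. The count of 11 rose without either stiff IPN library and fell without any other library, and the calls over all genes moved in the same directions. The median of the 39 genes, 0.21, was 0.45 without either stiff IPN library and 0.15 without either soft col:rBM library. It was 0.09 without either stiff col library and -0.06 without either soft IPN library.

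By gel, the median log2 difference of replicate 2 from replicate 1 over the 39 genes was 0.81 in soft IPNs, with 35 genes higher, and -0.50 in stiff IPNs, with 37 lower. In the collagen gels it was 0.29 and 0.28, with 25 genes higher in each. Over all tested genes the medians were at most 0.01 from 0. The medians of the 2 IPN gels thus had opposite signs. Only PKM and ENO1 were higher in replicate 2 in all 4 gels (21.4% of all genes were), and ENO2, P4HA1, PFKP and MXI1 were lower in all 4 (23.1%).

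**Figure D4:**
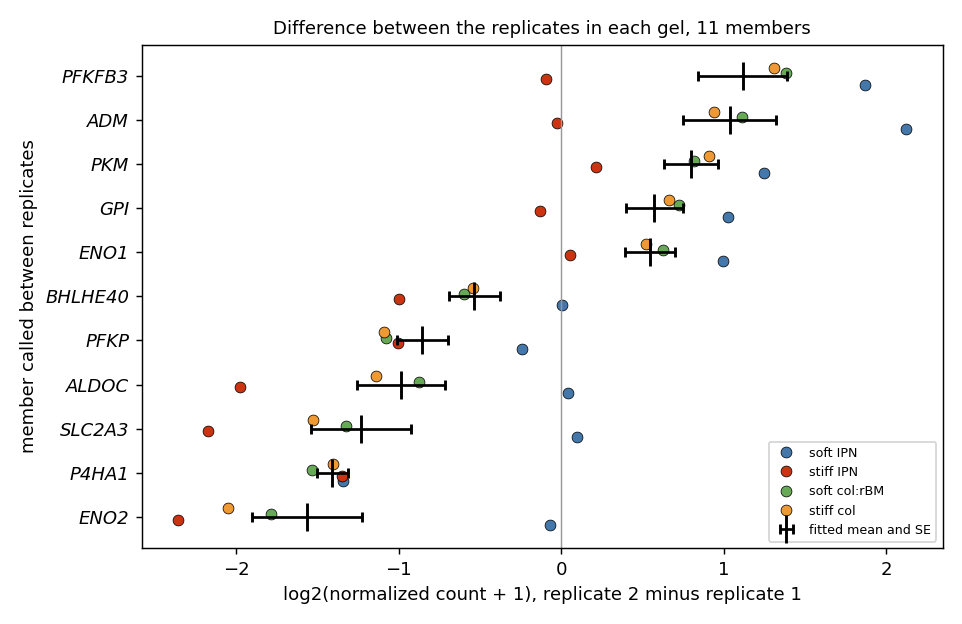
Log2(normalized count + 1) in replicate 2 minus that in replicate 1 (horizontal axis) for the 11 genes called between the trials, with 1 point per gel and the fitted mean with its SE as a black cross and bar. P4HA1 has all 4 points close together around -1.41, whereas for most other genes soft IPN or stiff IPN lies apart from the collagen gels.

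Levels can be compared between genes only per length. As normalized counts per kilobase of exon (mean over 8 libraries), GAPDH was the highest of the 39 at 65030, followed by DDIT4 at 9375, ALDOA at 8696, LDHA at 8634 and ENO1 at 7354. PDK1, KDM3A and ENO2 were the lowest, at 43.96, 66.52 and 69.23. Shares within enzyme pairs, each as a percent of the pair's summed level per length, also varied. ENO2 made up 0.09 to 2.33% of the pair with ENO1 and ALDOC 1.74 to 5.31% of the pair with ALDOA. Both were lowest in stiff IPN replicate 2. CA9 made up 54.0% of the pair with CA12 in soft IPN replicate 1 and 3.02% in stiff IPN replicate 2. P4HA2 had its highest share of the pair with P4HA1, 35.4%, in stiff IPN replicate 2, although its own count was lowest there (1697). Its share was 10.5 and 23.1% in soft IPNs (replicates 1 and 2) and 18.5% in stiff IPN replicate 1. It was higher in replicate 2 in every gel. The shares describe levels within a library and were not tested.

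**Figure D5:**
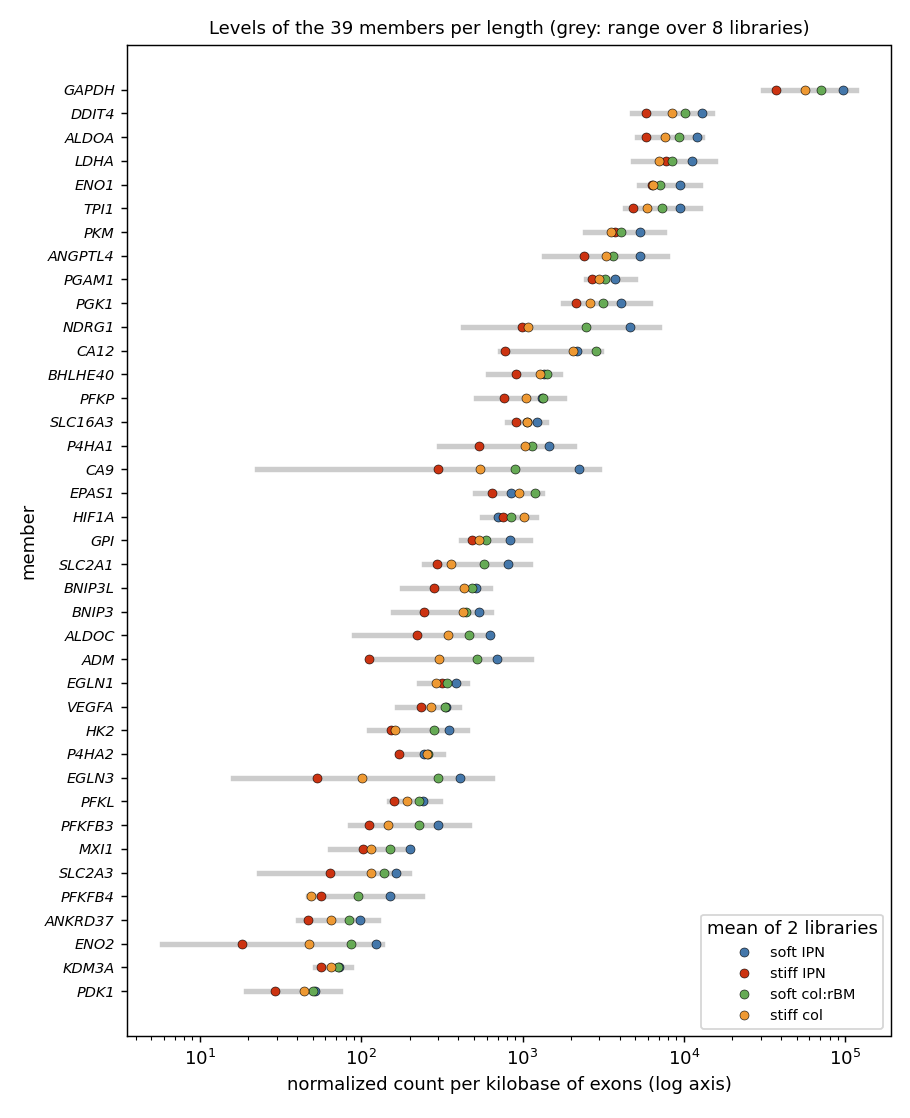
Normalized counts per kilobase of exon (log axis) for the 39 genes ordered by their mean, with 1 point for the mean of each gel and a grey bar for the range over the 8 libraries. The order runs from GAPDH at 65030 to PDK1 at 43.96.

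The other genes of the pathways, in lists chosen by name, followed the same comparisons to different degrees. Between stiff and soft IPNs the median log2 fold change was -0.58 for 38 other HIF targets (34 lower), -0.40 for 17 other glycolysis genes (12 lower) and -0.35 for 14 genes of the HIF machinery (9 lower). It was -0.44 for 5 genes listed for MondoA, a glucose-sensing transcription factor (5 lower). These were its targets TXNIP, ARRDC3 and ARRDC4, MLXIP, which encodes MondoA itself, and MLX, which encodes its partner. The pentose phosphate pathway (7 genes, median 0.095, 3 lower) and the TCA cycle with pyruvate dehydrogenase (29 genes, median -0.05, 16 lower) lay closer to the median of all genes, -0.01. By limma without the block 0 genes of the 6 lists passed in any gel comparison. At an unadjusted p under 0.05 between IPNs there were 11 of the 38 other HIF targets, 3 of the 14, 1 of the 17, 1 of the 5, 0 of the 7 and 2 of the 29, against 9.31% of all genes. With the block the calls between IPNs were all lower, against 2.13% of all genes. They were 4 of the 38 other HIF targets, 3 of the 14 genes of the HIF machinery and 1 of the 5 MondoA genes. The other 3 lists had none.

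LOX crosslinks collagen and had 3207 and 4950 in soft IPNs, 946 and 170 in stiff IPNs, 6587 and 3325 in soft col:rBM gels and 4987 and 2277 in stiff col gels, with a log2 fold change of -3.31 between IPNs (block SE 0.56, adjusted p = 0.491 by limma, 0.0316 with the block). The other HIF targets called were LOXL2 (-2.13, adjusted p = 0.0486 with the block), PLOD1 (-1.38, 0.0326) and ERRFI1 (-1.13, 0.0458). LOX, LOXL2 and PLOD1 modify collagen, as P4HA1 does, while ERRFI1 restrains the EGF receptor. In the HIF machinery CITED2, a competitor of HIF for its coactivator, had 591 and 675 in soft IPNs, 277 and 238 in stiff IPNs, 487 and 505 in soft col:rBM gels and 466 and 457 in stiff col gels. Its stiff IPN libraries lay below all others, at -1.29 (block SE 0.16, adjusted p = 0.313 by limma, 0.0161 with the block). RACK1 (-1.03, 0.0317 with the block), which promotes HIF-1 alpha degradation, and ARNT (-0.62, 0.0458), the partner of the alpha subunits, also fell. TXNIP, a glucose-responsive gene that restrains glucose uptake, had 46372 and 11124 in soft IPNs, 14227 and 3225 in stiff IPNs, 47108 and 9314 in soft col:rBM gels and 37280 and 6628 in stiff col gels, and at -1.75 with -1.71 in replicate 1 and -1.79 in replicate 2, the trials were close (adjusted p = 0.643 by limma, 0.00669 with the block).

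LOX (3.07, adjusted p = 0.0355 with the block), TXNIP (1.21, 0.014) and CITED2 (0.84, 0.0418) rose with the block in stiff col against stiff IPN, and no gene of these lists passed between the collagen gels, between the soft gels or in the difference of the stiffness effects. Between the trials, 8 of the 38 other HIF targets passed (5 higher), against 27.1% of all genes. So did 3 of 17 other glycolysis genes, 1 of 14 of the HIF machinery and 2 of 5 MondoA genes. Of the rest, 2 of 7 pentose phosphate genes and 5 of 29 TCA cycle genes passed. The largest of these differences were in CXCR4 (-2.80, adjusted p = 0.00548 by limma), a chemokine receptor, in PDK4 (-2.66, 0.00122), which shuts pyruvate dehydrogenase, in STC2 (2.39, 0.0074), a secreted glycoprotein, and in TXNIP (-2.26, 0.000237).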

How the data were processed

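RNA-seq was made from 8 samples, 2 per gel, grouped by their labels, with replicate numbers from the titles. Per the submitters' notes the authors used Trim Galore 0.3.3, TopHat2 2.0.13, SAMtools 1.1, HTSeq, DESeq2 and R 3.2.0 against hg19, while the methods name Bowtie2, and reads that map to several places were removed. The deposited values are whole-number normalized counts per gene symbol, a scaled read signal and not raw counts, so a count model was not used. A further limit is that 28 symbols read as dates; none is a member.

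Here log2(value + 1) was fitted with limma 3.58.1 in R 4.3.3 (trend and robust moderation, with statmod 1.5.0), giving each gel 1 mean, using all 8 libraries and no replicate block, and p-values were adjusted by Benjamini-Hochberg over 13369 genes with at least 10 in at least 2 libraries. The fit was also run on simulated data, with a shift between trials that was absent or the same in every gel. In these data the members' shift had opposite signs in soft and stiff IPNs. The simulation did not cover that case. Fold changes are on the log2(value + 1) scale, which understates low genes. Replicate numbers mark independent trials, and deviations from gel means correlated between gels within a trial (0.278 to 0.819, 6 of 6 gel pairs), so the block was fitted as an alternative. With 2 against 2 libraries an exact permutation test cannot go below 0.333, so none was run. Lengths came from GENCODE 44 exons on hg19, promoters from RefSeq. Tables and plots were made in Python 3.11.15 (pandas 2.3.3, matplotlib 3.10.9).

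2 genes of the lists are not reported here. The members, lists and tests were chosen with earlier results of these data known. Full values are given for members called in any comparison and for the 3 largest rises and falls per comparison whose libraries do not overlap. Other genes are given by counts and ranges unless named as exceptions. Alternatives were the pseudocount, the low-value filter, scaling, moderation, the libraries in the fit, the block and leaving out each library.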

Additional observations from a re-analysis of the deposited data

Results flagged for a closer look

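Each of the following had opposite directions in 2 settings in every replicate, and the difference of the fold changes was tested as an interaction by limma, which called none (adjusted p = 1 without the replicate block, 0.117 to 0.566 with it). Collagen gels were above IPNs among stiff gels and below them among soft gels, in both replicates, for ALDOA (difference of log2 fold changes 0.764), ALDOC (1.337), GAPDH (1.037), DDIT4 (0.882) and P4HA1 (1.322) among the 39 genes. Among soft gels in replicate 1 the log2 fold changes of ALDOA (-0.023), ALDOC (-0.034) and GAPDH (-0.017) were very small. Those of DDIT4 and P4HA1 were -0.273 and -0.302. The share of all genes with such opposite directions was not counted. The opposite directions also held in the lists for CITED2 (1.192), RACK1 (0.837), H6PD (0.649), TKT (0.719) and SUCLG2 (0.379). TKT, a pentose phosphate enzyme, was also lower in stiff than in soft IPNs and higher in stiff than in soft collagen gels in both replicates, which is the same difference of 0.719. Groups of 2 libraries are too small for a test of single outlying samples.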

How the results depend on the processing

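Depth did not limit these genes, whose lowest value was 25. Only 2 libraries per gel did, and stiff IPN replicate 2 and soft IPN replicate 2 decided most sizes. The replicate block raised the calls between stiff and soft IPNs to 511 genes and 7 of the 39, between the stiff gels to 330 and 1, between the soft gels to 3 genes, for the difference of stiffness effects to 2 genes and for any gel difference to 211 and 1. Scaling to library totals shifted the median of all genes by 0.26 between IPNs and by -0.21 in the difference of stiffness effects. Under the 4 other scalings 38 of the 39 genes were lower in stiff than in soft IPNs, and 36 to 38 were lower in the stiff collagen gel.

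Without the block, a pseudocount of 5 gave 4 genes between the stiff gels, fitting IPNs alone gave 2 between IPNs, plain moderation gave 4 of the 39 between trials, and leaving out the gel terms gave 2118 genes and 3 of the 39. With the block, calls among the 39 for any gel difference were 2 with a pseudocount of 5, 4 with no filter, 3 with library totals and 0 with plain moderation. Between the stiff gels they were 2 with no filter and 2 with library totals, P4HA1 and CA12 in each, 0 with plain moderation and 2 with those gels alone, CA12 and ADM, without P4HA1. Between IPNs they were 1 with plain moderation and 4, of 312 genes, with IPNs alone, where ENO2, ADM and ALDOC lost their calls. With their gels alone there were 24, of 945 genes, between collagen gels and 1, of 45 genes, between soft gels. Where no number of all genes is given, these counts do not show whether the 39 genes moved more than the rest. The causes were not tested.
Leaving out 1 library at a time moved the median log2 fold change of the 39 genes from -1.38 to -0.60 between IPNs, from 0.08 to 0.82 between the stiff gels, from -0.41 to -0.21 between collagen gels, from -0.63 to 0.18 between soft gels, from 0.25 to 1.07 for the difference of stiffness effects and from -0.06 to 0.45 between trials. Calls then ranged from 0 to 5 genes between the stiff gels and from 1213 to 5845 genes, and 2 to 28 of the 39, between trials. With the block they ranged over 0 to 2688 genes and 0 to 36 of the 39 between IPNs, 36 to 2215 and 0 to 24 between the stiff gels, 4 to 2034 and 0 to 32 for any gel difference, 0 to 675 and 0 to 16 for the difference of stiffness effects, 0 to 30 genes between collagen gels and 0 to 21 between soft gels. In these fits an arm left with 1 library is assumed to vary like the others.
With the block and without soft IPN replicate 2, the lower values in soft col:rBM than in soft IPN turned for CA9 (0.025), ALDOC (0.194) and GAPDH (0.025), which were -2.50, -1.174 and -0.875 without soft IPN replicate 1. Of the named genes' values under alternatives, 60 without and 38 with the block lost a call and 8 and 17 gained one. The count of members with a HIF core was 22 of 35 for ACGTG alone.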
